A study of Bos taurus with 4 samples.

Results

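The genes described here are early response genes whose products act back on the response that switched them on: ZFP36, ZFP36L1, BTG1, BTG2, IER2, IER3, TRIB1 and IFRD1. They were chosen by name, with the ratios of the same breed comparison already known, and each was read from the bovine probe whose RefSeq accession belonged to the gene, the brightest probe standing for the gene. Of the 8 genes, 6 had such a probe and all 6 passed the filter on dim signals, among 6376 genes tested in the series. BTG2 and IER3 were not analysed here. Because the choice rested on this comparison, the ratios of the 6 genes are a description, and the number that passes the series-wide fit is printed only beside the share of all genes that does.

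Expression was compared in m. semitendinosus, a hind-leg skeletal muscle, of bulls aged 15 months: Limousin (LIM), a beef breed, and Holstein-Friesian (HF), a dairy breed that served as the control. Tissue from the middle of the muscle, freed of connective tissue and fat, was frozen directly after slaughter. Each of 4 Agilent two-colour microarrays held RNA from 1 LIM bull in the red dye Cy5 and from 1 HF bull in the green dye Cy3, so 4 bulls per breed were measured as separate biological replicates. No array had the dyes exchanged, and breed and dye therefore cannot be told apart.

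Early response genes are transcribed within minutes of a stimulus such as a growth factor, an inflammatory signal or physical stress, without the need for new protein. Many encode transcription factors, but a second group limits the response: ZFP36 proteins bind AU-rich elements in short-lived mRNAs and bring in the CCR4-NOT deadenylase, BTG proteins are antiproliferative adaptors that bind the deadenylase subunits CNOT7 and CNOT8, and TRIB1 is a pseudokinase that carries substrates such as C/EBP proteins to the COP1 ubiquitin ligase. IER2 and IER3 are products of immediate early genes, and IFRD1 is a transcriptional co-regulator known in mouse for its part in muscle differentiation and regeneration.

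Of 42990 spots for bovine transcripts, 32513 to 33527 per array were well above background in LIM and 27102 to 28769 in HF, and none was saturated. The red channel was the brighter before normalization, with a median raw log2 ratio of LIM over HF of 0.68 to 1.25 per array, which loess removed. At an adjusted p under 0.05 (limma, Benjamini-Hochberg over 15855 probes), 201 of 6376 genes (3.15%) were lower and 177 (2.78%) higher in LIM. Over probes the split was 398 lower and 470 higher, and 275 lower and 3525 higher with median centring in place of loess, which moved the median of all genes to 0.35. With 1 array left out at a time, 0 probes passed without array 1, 2 or 4 and 51 without array 3. At an unadjusted p under 0.05 the counts were 3184 to 3911, against 4326 with all 4 arrays. Such a fit also has fewer arrays, so lost calls cannot be assigned to the array left out. Of 15 muscle fibre markers 11 were measured, each with a signal well over background in either channel of every array, with summed log2 signals of 20.08 to 20.21 in LIM and 19.91 to 20.34 in HF. Single markers differed: MB (myoglobin, 1.02) and TNNC2 (fast troponin C, 0.68) passed the test as higher in LIM, while TNNC1 (slow troponin C, -1.12) and MYH7 (slow myosin, -1.06) did not pass but had every LIM signal below every HF signal. The part of fibre type in the ratios of the 6 genes was not tested.

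The 6 genes fell into a group of 4 with lower signal in LIM and a pair near 0. IFRD1, TRIB1, ZFP36 and BTG1 had mean log2 ratios of LIM over HF between -2.07 and -1.18, and each was below 0 on all 4 arrays, as were 17.4% of all genes tested. In the same 4 genes every LIM signal lay below every HF signal, which held for 8.5% of all genes. IER2 and ZFP36L1 had means of -0.20 and -0.15 and lay on both sides of 0, with means of 0.27 and 0.45 under median centring. Without array 2, the only array above 0 for either gene, the means were -0.47 and -0.30. Neither gene then passed the test (adjusted p = 0.0971 and 0.156). The direction follows the dyes given in the labels. For TRIB1 and BTG1 it is opposite to that in the study's own tables, which list both as higher in the beef breed. The mismatch also held for 1 gene outside the 6, FST, which encodes follistatin. The directions of other genes were not set beside the study's here. FST was named here after its value was seen, among genes picked for ratios near the mean of the 6 genes. Its ratios were -1.41, -1.06, -0.28 and -1.25 on arrays 1 to 4, and it did not pass the test (adjusted p = 0.0545). The study gives FST as higher in beef breeds, by array and by qPCR. Whether the dye labels are exchanged for the whole comparison was not tested, and every sign and rank below holds in the labelled direction only. In bulk muscle, fewer cells of a type and less RNA per cell cannot be told apart.

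**Figure D1:**
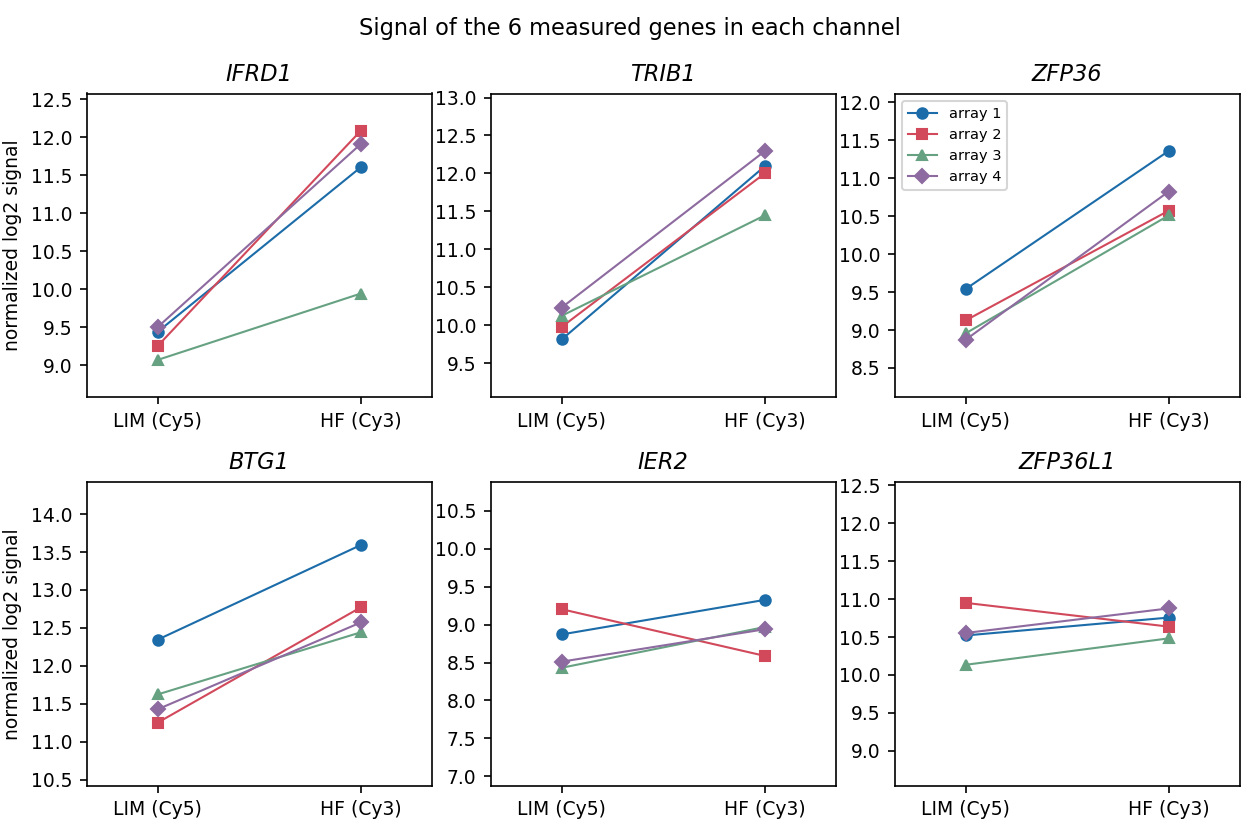
Normalized log2 signal of the 6 measured genes, 1 panel per gene, in LIM (Cy5, left) and HF (Cy3, right). Each line joins the 2 bulls of an array, and every panel spans the same number of log2 units. For IFRD1, TRIB1, ZFP36 and BTG1 every LIM signal lies below every HF signal, while the lines of IER2 and ZFP36L1 cross.

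ZFP36 (tristetraprolin) and ZFP36L1 are paralogues with the same kind of RNA-binding zinc fingers. ZFP36 had normalized log2 signals of 9.54, 9.13, 8.96 and 8.87 in LIM on arrays 1 to 4, against 11.36, 10.57, 10.51 and 10.82 in HF. The highest LIM signal was below the lowest HF signal, and the difference was of similar size in all 4 pairs of bulls. The log2 ratios were -1.82, -1.45, -1.55 and -1.95, with a mean of -1.69 ± 0.10 (moderated SE, n = 4 arrays), a signal 3.23-fold lower in LIM. On single arrays the LIM signal stood at 25.8% to 36.7% of the HF signal. Among the 4 genes with lower signal in LIM, the ratio of ZFP36 varied least, with an SD of 0.23.

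ZFP36L1 had log2 signals of 10.52, 10.95, 10.13 and 10.55 in LIM, against 10.76, 10.64, 10.48 and 10.88 in HF. The groups overlapped, and on array 2 the LIM bull had the higher signal. The log2 ratios were -0.24, 0.31, -0.35 and -0.32, with a mean of -0.15 ± 0.13. The log2 ratio of ZFP36L1 was above that of its paralogue on every array, by 1.54 on average and at most by 1.76. This compares ratios, not the abundance of the transcripts, since different probes give different brightness.

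BTG1, which holds cells back from proliferation, had log2 signals of 12.35, 11.25, 11.62 and 11.43 in LIM, against 13.59, 12.77, 12.44 and 12.57 in HF. The LIM bull of array 1 came close to the HF bulls of arrays 3 and 4, but the groups did not overlap. The log2 ratios were -1.25, -1.52, -0.82 and -1.14, with a mean of -1.18 ± 0.12, a signal 2.27-fold lower in LIM. On array 1 both bulls had the highest BTG1 signal of their breed, so the ratio of that array lay within the range of the others.

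TRIB1 had log2 signals of 9.81, 9.98, 10.12 and 10.23 in LIM, against 12.09, 12, 11.45 and 12.29 in HF. The 4 LIM bulls lay close together, and the nearest HF bull, that of array 3, was still above all of them. The log2 ratios were -2.28, -2.02, -1.32 and -2.06, with a mean of -1.92 ± 0.17, a signal 3.79-fold lower in LIM.

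IFRD1 had the lowest mean ratio of the 6 genes and the widest spread. Its log2 signals were 9.44, 9.25, 9.07 and 9.50 in LIM, against 11.61, 12.09, 9.94 and 11.91 in HF. The LIM bulls were alike (SD 0.20), whereas the HF bulls varied (SD 0.98) because the HF bull of array 3 was far below the other 3. The log2 ratios were -2.17, -2.83, -0.87 and -2.41, with a mean of -2.07 ± 0.32, a signal 4.20-fold lower in LIM. The LIM signal was thus at most 22.3% of the HF signal on arrays 1, 2 and 4 and 54.6% on array 3. The SD of the ratio, 0.84, exceeded that of 98.5% of all genes tested.

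IER2, an immediate early gene whose product is found in the nucleus, had log2 signals of 8.87, 9.20, 8.43 and 8.51 in LIM, against 9.32, 8.59, 8.97 and 8.94 in HF. The groups overlapped. The log2 ratios were -0.46, 0.61, -0.54 and -0.43, with a mean of -0.20 ± 0.21. Array 2 alone was above 0, as it was for ZFP36L1.

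**Figure D2:**
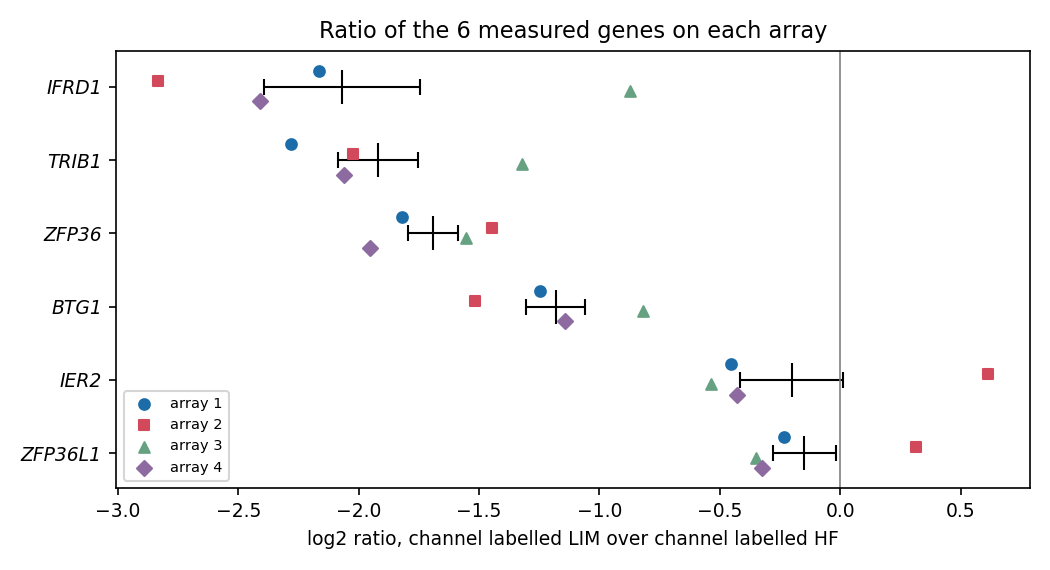
Log2 ratio of LIM over HF for the 6 measured genes, 1 point per array, with the mean and its moderated standard error. IFRD1, TRIB1, ZFP36 and BTG1 lie below 0 on all 4 arrays, array 3 stands nearest to 0 for IFRD1, TRIB1 and BTG1, and array 2 is the only one above 0 for IER2 and ZFP36L1.

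The values within an array were precise next to the spread between arrays. Each gene had 2 spots per array, whose log2 ratios differed by at most 0.15, with a median difference of 0.05. The median SD of the ratio between arrays was 0.36 over the 6 genes and 0.21 over all genes tested. On every array, each of the 6 probes was well above background in LIM and in HF. The raw scanner signals gave a mixed view, since the red channel was brighter throughout. Raw median signals of IFRD1 were 977.5, 952.5, 948.5 and 1237 in LIM, against 2106.5, 2630.5, 487.5 and 2481 in HF. IFRD1, TRIB1 and ZFP36 were lower in LIM before any correction on 3 of 4 arrays, array 3 being the exception, and BTG1 on 2 of 4. For IER2 and ZFP36L1 the raw signal was higher in LIM on all 4 arrays.

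The order of the mean ratios, from the lowest, was IFRD1, TRIB1, ZFP36, BTG1, IER2 and ZFP36L1. Neighbours within the first 4 had overlapping ranges over the arrays, and so had IER2 and ZFP36L1. The only gap in the order lay between BTG1 and IER2, where the highest BTG1 ratio, -0.82, was below the lowest IER2 ratio, -0.54. TRIB1 and IFRD1 differed on average by 0.15 on the log2 scale, with single arrays from -0.45 to 0.81, so their order was not fixed by these arrays.

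Set among all 6376 genes by mean ratio, IFRD1, TRIB1, ZFP36 and BTG1 were the 13th, 17th, 21st and 62nd from the lowest. With the dyes turned they would hold the same places from the highest. IER2 and ZFP36L1 stood at 21.1% and 26.6% of the way up the same order. A mean ratio at least 2-fold lower in LIM was found for 4 of the 6 genes and for 1.57% of all genes. At an adjusted p under 0.05, 4 of 6 were lower, against 3.15%, and 0 of 6 without array 1, 2 or 4. The choice of the genes used this contrast, so these counts carry no weight of their own. The median ratio of the 6 genes was -1.44, against 0.00 for all genes.

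**Figure D3:**
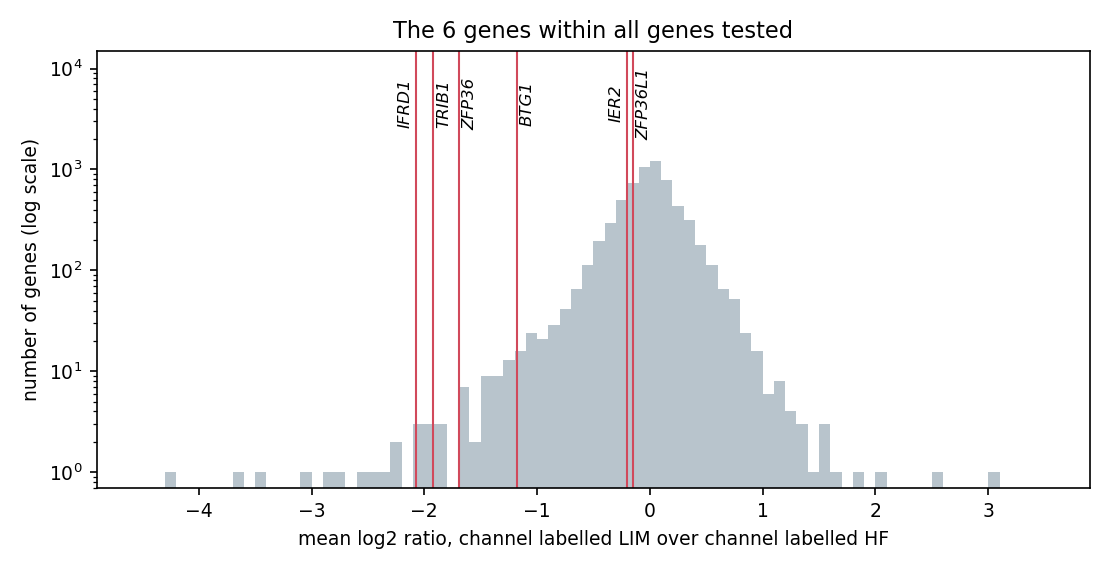
Mean log2 ratio of LIM over HF of the 6376 genes tested (grey bars, number of genes on a log axis), with red lines at the 6 genes. IFRD1, TRIB1, ZFP36 and BTG1 stand in the thin lower tail, between -2.07 and -1.18, and IER2 and ZFP36L1 within the main body of the distribution.

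The arrays differed in how far the genes were apart between the breeds. The median log2 ratio of the 6 genes was -1.53, -1.48 and -1.55 on arrays 1, 2 and 4 and -0.85 on array 3. For IFRD1 and TRIB1 the smaller ratio of array 3 came with the lowest HF signal, while the LIM signal of that array lay within or close to the range of the other LIM bulls. ATF3 and FOS, early transcription factor genes, had log2 ratios of -1.77 and -1.78 on array 3, against -5.50 to -4.45 and -4.43 to -3.75 on the other arrays. ZFP36 did not share this pattern, with its ratio nearest to 0 on array 2. Nor was the pattern general among early genes. The class median was nearest to 0 on array 3 for the AP-1 subunits with ATF3 (-1.41). For MYC and the Kruppel-like and related early growth factors it was so on array 1 (-1.49), and for the GADD45 family with CDKN1A on array 4 (-1.04). GADD45A had its lowest ratio, -1.71, on array 3.

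Paralogues of the 8 genes were described next. Of 10 listed, 5 were measured, and TRIB2, a second pseudokinase of the TRIB1 family, was the only one to pass the test. TRIB2 had log2 signals of 8.83, 8.76, 8.30 and 8.58 in LIM, against 9.45, 9.09, 9.14 and 9.24 in HF, and fell by 0.61 ± 0.10 on the log2 scale (adjusted p = 0.0397). With median centring it stood at -0.13 and no longer passed (adjusted p = 0.513). BTG3, a BTG relative, had a ratio of -0.47 ± 0.12 with the LIM signals below the HF signals (adjusted p = 0.0825). TOB2, an antiproliferative protein of the same family, had a ratio of -0.48 ± 0.24 that rested on arrays 3 and 4, where it was -1.19 and -0.78. ZFP36L2 stood at -0.16 ± 0.17 and IFRD2 at 0.13 ± 0.16, both with arrays on either side of 0.

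The CCR4-NOT deadenylase and related proteins, which ZFP36 and BTG proteins recruit, had 10 of 17 listed genes measured, of which 0 fell and 1 rose, with a median ratio of 0.11. CNOT7, the catalytic subunit that BTG1 binds, rose by 0.60 ± 0.11 (adjusted p = 0.0490), with log2 signals of 11.55, 11.17, 11.51 and 11.29 in LIM, against 10.62, 10.87, 10.94 and 10.67 in HF. CNOT7 passed in 11 of 16 alternatives and in none that left out an array (adjusted p = 0.0865 to 0.159). The steps after deadenylation (decapping, 5′ to 3′ decay and the exosome) had 16 of 30 genes measured, of which 0 passed the test (5 at an unadjusted p under 0.05), with a median of -0.09. The lowest p-values there belonged to LSM3, a subunit of the decapping-associated LSM ring, at -0.35 ± 0.07 and DCP1A, a decapping factor, at -0.36 ± 0.08. Other proteins that bind AU-rich elements had 6 of 12 measured and 0 past the test (1 at an unadjusted p under 0.05), with a median of 0.01. Among these PTBP1, a splicing and stability factor, stood at -0.23 ± 0.07 and ZC3H12A, an endoribonuclease of inflammatory mRNAs, at -0.27 ± 0.16.

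Transcripts known as ZFP36 targets in mouse or human were read as a further list. Of 21 listed, 12 were measured, 4 fell and 0 rose, and the median was -0.59. FOS, an AP-1 subunit, had a ratio of -3.47 ± 0.44 (adjusted p = 0.0270) and MYC, a growth-promoting transcription factor, of -2.78 ± 0.24 (adjusted p = 0.0187). PIM1, a kinase that promotes survival, fell by 0.79 ± 0.13 on the log2 scale (adjusted p = 0.0400). PTGS2, the inducible cyclooxygenase, had a ratio of -0.88 ± 0.10 (adjusted p = 0.0236) but was well above background in LIM on only 2 of 4 arrays. Its size depended on the background treatment: it ran to -3.11 with the processed signals, against -0.85 at the least over alternatives that kept all arrays. FOS and MYC are themselves early response genes whose ratios were known when the lists were drawn up.

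Other feedback inhibitors were mixed. Of 17 dual-specificity phosphatases, Sproutys and related inhibitors of the MAP kinase route, 7 were measured, 1 fell and 0 rose, and the median was 0.03. The gene that fell was ERRFI1, which inhibits the EGF receptor, with log2 signals of 8.08, 7.67, 7.56 and 7.59 in LIM, against 9.04, 8.94, 8.94 and 8.60 in HF and a ratio of -1.16 ± 0.09 (adjusted p = 0.0187). Of 11 feedback inhibitors of NF-kB, 6 were measured and 0 passed (2 at an unadjusted p under 0.05), with a median of -0.23. NFKBIA, the inhibitor that holds NF-kB in the cytoplasm, had a ratio of -1.54 ± 0.30 with every LIM signal below every HF signal, and missed the threshold (adjusted p = 0.0531). It passed in 9 of 16 alternatives (adjusted p = 0.0205 to 0.195 over all 16) and in none that left out an array. TNIP1, a partner of the inhibitor A20, stood at -0.39 ± 0.12.

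Of 9 partners and substrates of TRIB1, 6 were measured, 0 fell and 1 rose, and the median was 0.34. In 1 alternative that kept all arrays this median reached 0.95, while over the other 19 alternatives it was 0.26 to 0.38. COP1 itself stood at 0.37 ± 0.09 (adjusted p = 0.0844) and CEBPA, a C/EBP gene, at -0.15 ± 0.10 (adjusted p = 0.387). DET1, which works with the COP1 ubiquitin ligase, rose by 0.62 ± 0.06 (adjusted p = 0.0228), with log2 signals of 9.83, 9.84, 9.90 and 9.99 in LIM, against 9.18, 9.11, 9.36 and 9.44 in HF. The serum response factor, its partners and other upstream factors, which drive early genes, had 9 of 15 measured and 0 past the test (2 at an unadjusted p under 0.05), with a median of 0.03. Among these CRTC2, a coactivator of CREB, stood at 0.28 ± 0.08 and MAPK14, the p38 alpha kinase, at -0.25 ± 0.08.

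Targets of p53, which induces BTG2, moved in both directions. Of 17 listed 11 were measured, 1 fell and 2 rose, and the median was 0.14. GADD45A, a growth arrest gene, fell by 1.09 ± 0.20 on the log2 scale (adjusted p = 0.0474), while MDM2, the ubiquitin ligase of p53, rose by 0.62 ± 0.10 (adjusted p = 0.0405) and CCNG1, cyclin G1, by 0.55 ± 0.06 (adjusted p = 0.0236). Genes of the integrated stress response and unfolded protein response had 10 of 17 measured, of which 3 fell and 0 rose, with a median of -0.28. DDIT4, an inhibitor of mTOR complex signalling, had a ratio of -1.88 ± 0.21 (adjusted p = 0.0239). DDIT3, the transcription factor CHOP, had a ratio of -0.68 ± 0.12 (adjusted p = 0.0441) and XBP1, a transcription factor of the unfolded protein response, of -0.42 ± 0.07 (adjusted p = 0.0440), which turned to 0.21 with median centring. GADD45A and DDIT3 kept their sign under median centring but no longer passed.

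Over all these related lists together, 96 of 172 listed genes were measured, of which 10 (10.4%) fell and 4 (4.17%) rose, against 3.15% and 2.78% of all genes. These lists were drawn up with earlier results of these data known, so the shares carry no weight of their own. FOS, MYC and GADD45A, among those that fell, also belong to the classes of early genes described below. With median centring 8 fell and 26 rose. The number that passed was 14 with all 4 arrays, 1 without array 3 and 0 without array 1, 2 or 4. At an unadjusted p under 0.05 it was 33 to 35 with 1 array left out, against 37 with all 4.

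**Figure D4:**
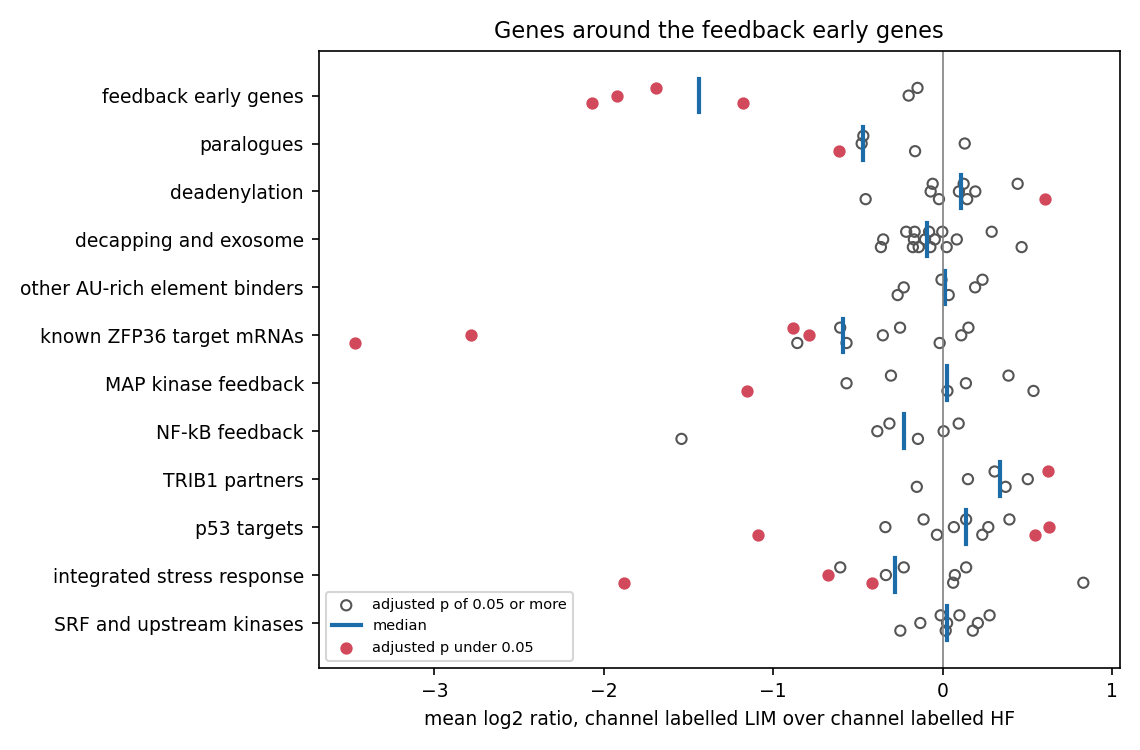
Mean log2 ratio of LIM over HF of each measured gene in the group of 6 genes (top) and the related lists, filled red at an adjusted p under 0.05 and open otherwise, with the median of each list as a blue bar. The 6 genes, chosen on this contrast, have a median of -1.44, the ZFP36 targets of -0.59 and the paralogues of -0.47, while the deadenylation, decay and upstream lists lie around 0.

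Other classes of early genes had medians below 0 as well, with a wider range of ratios than the 6 genes, from -4.26 for ATF3 to 0.39 for CDKN1A, a cell cycle inhibitor. Of the AP-1 subunits and ATF3, 6 were measured and 4 fell, with a median of -1.75, and ATF3, a stress-induced transcription factor, had the lowest ratio of all genes at -4.26 ± 0.65. Of MYC and the Kruppel-like and related early growth factors, 6 were measured and 4 fell, with a median of -1.95, KLF4 standing at -2.31 ± 0.20. Of the GADD45 family and CDKN1A, 4 were measured and 3 fell, with a median of -1.36, led by GADD45G at -2.86 ± 0.32 and GADD45B at -1.63 ± 0.12. Of all genes tested, 3.15% fell. These classes too were drawn up with earlier results of these data known, so their counts carry no weight of their own. The difference between these classes and the 6 genes was not tested.

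Among the genes whose ratios followed the mean of the 6 genes most closely on the 4 arrays were FBLN5 (fibulin 5, an elastic fibre protein), NR4A1, HMOX2 (a heme oxygenase) and ITIH4. That mean was -1.37, -1.15, -0.91 and -1.39 on arrays 1 to 4. FBLN5 had ratios of -0.92, -0.97, -0.79 and -1.24, a root mean square difference of 0.26 log2 units from that mean. NR4A1, an orphan nuclear receptor and itself an early gene, had ratios of -1.34, -1.14, -0.48 and -1.05 and shared the smaller value on array 3. The root mean square difference was 0.27 for NR4A1 and reached 0.31 for ITIH4. With 4 arrays this likeness is a description of single values.

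Markers of other cell types were read beside these ratios. Of 12 macrophage markers 5 were measured, all above background in both channels, and 0 passed the test (3 at an unadjusted p under 0.05). Their median ratio was -0.62, with summed log2 signals of 11.27 to 12.14 in LIM and 11.90 to 13.34 in HF. By array their median was 0.12, -0.18, -1.28 and -0.93. On array 2 the 5 markers were mixed, with C1QA at -0.78, CD14 at -0.41, AIF1 at -0.18, CD68 at -0.0006 and CD74 at 0.02. Of 8 granulocyte and mast cell markers 5 were measured, with summed log2 signals of 10.13 to 10.48 in LIM and 10.46 to 11.09 in HF, and TPSB2, a mast cell tryptase, fell by 0.88. Of 6 nerve and Schwann cell markers 3 were measured and 0 passed (1 at an unadjusted p under 0.05), with a median of -0.60 and summed log2 signals of 10.10 to 10.56 in LIM and 10.21 to 12.14 in HF. PMP22, a myelin protein, had ratios of -1.97, -2.28, 0.20 and -1.23, with array 3 the nearest to 0 as for IFRD1 and TRIB1. The part of macrophages, mast cells and nerve in the ratios of the 6 genes was not tested. Lymphocyte and endothelial markers had medians of -0.08 and -0.11, and none of their 14 measured genes passed (2 and 0 at an unadjusted p under 0.05). Fibroblast markers had 1 lower (OSR1, -1.28) and 1 higher (COL3A1, 2.53) of 9 measured, with a median of 0.12. At an unadjusted p under 0.05, 1 was lower and 4 were higher. Their summed log2 signals were 14.72 to 15.56 in LIM and 13.91 to 14.88 in HF. The part of fibroblasts in the ratios of the 6 genes was not tested either. Smooth muscle markers had 1 lower of 6 and adipocyte markers 1 lower of 5.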

How the data were processed

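RNA of 4 LIM and 4 HF bulls was measured on 4 two-colour arrays, all on 1 slide, and the labels number the pairs as biological replicates, so the array pairs the bulls. Per the file headers the authors quantified the spots with Feature Extraction 10.7.3.1, and the intensity values deposited and used here are medians over a spot's pixels and over its surrounding background, per dye and without normalization. The deposited log10 ratios are the software's background-subtracted, dye-normalized red over green signals, and the series value table holds the same values in the same scale and direction (largest difference 0), with column medians of 0 and 5507 to 6743 ratios per array set to exactly 0.

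Here the median intensities were background-corrected with normexp (offset 50) and normalized by loess within arrays in limma 3.58.1 (R 4.3.3), with control spots at weight 0 and non-uniform spots (5 to 10 per array) left out. The offset shrinks ratios of dim probes. Spots of a probe were averaged, and a probe was kept if all its spots were well above background in 1 channel on 3 or more arrays (15855 of 21475 probes). Accessions were matched to a RefSeq table of ARS-UCD2.0 for names only (8297 probes, 7788 symbols), and the brightest kept probe stood for a gene. Log2 ratios were tested against 0 (lmFit and eBayes, two-sided, Benjamini-Hochberg over all kept probes), and the fit was tested on simulated data. Errors are moderated standard errors over 4 arrays, whose number limits the precision. Levels per channel were taken after Aquantile.

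The genes and lists were chosen with earlier results of these data known. Named besides are all measured paralogues, up to 4 genes per related list past the test by size or else 2 by the smallest p, up to 2 genes per comparison list by size, and the 5 genes closest to the mean of the 6, of which 1 is not reported here. Alternatives were the background correction, offset, processed signals, median centring, centring on kept probes, Aquantile, filters, non-uniform spots, a trended robust prior, the methods' t-test, array weights, unpaired channels, averaging a gene's probes, and dropping each array in turn. With 1 slide there was no slide block to fit. Sequences were not analysed here, nor were the study's Hereford bulls.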

Additional observations from a re-analysis of the deposited data

Results flagged for a closer look

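For IER2, array 2 had a log2 ratio of 0.61, against -0.54 to -0.43 on the other 3 arrays, a gap of 0.905 of the whole range. For ZFP36L1, array 2 stood apart as well, at 0.31 against -0.35 to -0.24, a gap of 0.830 of the range, just past the critical value. The median ratio of the 6 genes was nearest to 0 on array 3, at -0.85 against -1.55 to -1.48, a gap of 0.906 of the range. These 3 were the values past Dixon's 95% critical value among 62 checked, where chance alone gives about 3.1, and their cause was not tested.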

How the results depend on the processing

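IFRD1, TRIB1, ZFP36 and BTG1 were lower in LIM under every alternative run. With 1 array left out, the number of the 6 genes past the test ranged from 0 to 4, being 0 without array 1, 2 or 4 (4 to 6 at an unadjusted p under 0.05). The number of probes called ranged from 0 to 51 and that of related genes from 0 to 1. The ratio of IFRD2 then ranged from -0.015 to 0.31 and that of ZFP36L2 from -0.30 to 0.018. Median centring in place of loess moved the median of all genes to 0.35 and that of the 6 genes to -0.84, called 3800 probes (24%, 275 lower, 3525 higher) against 868 (398 lower, 470 higher), and 34 related genes (8 lower, 26 higher) against 14. It also turned the ratios of ZFP36L1 to 0.45, IER2 to 0.27, ZFP36L2 to 0.45, TOB2 to 0.031, DCP1A to 0.19, LSM3 to 0.18, MAPK14 to 0.25, TNIP1 to 0.27, XBP1 to 0.21 and ZC3H12A to 0.35. BTG1 then stood at -0.55 (adjusted p = 0.136) and TRIB2 at -0.13 (adjusted p = 0.513), and 3 of the 6 genes were called. The methods' t-test (p up to 0.05 and at least 1.3-fold) called 1479 probes, but after Benjamini-Hochberg adjustment 1 probe, 0 of the 6 genes and 0 related genes (3469, 4 and 32 at an unadjusted p under 0.05). The processed signals called 1347 probes and the trended robust prior 1310. Without the filter on dim probes 9 related genes and 3 of the 6 genes were called, with IFRD1 missing the threshold (adjusted p = 0.0554). Without the pairing by array (channels as unpaired samples) 1091 probes and 3 of the 6 genes were called, with BTG1 missing the threshold (adjusted p = 0.0533).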
